A study of Mus musculus with 6 samples.

Results

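Chemokine ligands are secreted or membrane-bound proteins that draw leukocytes along a gradient through receptors on the responding cell. In the thymus, dendritic cells (DCs) of the medulla make some of them: Ccl17 and Ccl22, which bind Ccr4, attract developing T cells that have just passed positive selection. Ccl3, Ccl4 and Ccl5 are inflammatory chemokines that attract T cells and monocytes, Cxcl16 is made as a transmembrane protein that binds Cxcr6, and Cxcl2 attracts neutrophils through Cxcr2. The 7 ligand genes Ccl22, Ccl17, Ccl5, Ccl3, Ccl4, Cxcl16 and Cxcl2 were taken by symbol, and all 7 were found among the 23420 gene symbols of the read count tables.

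Reads per gene were counted in 6 RNA libraries from thymic DCs of wild-type mice, 2 in each of 3 groups sorted by flow cytometry, in a study of DCs that reach the thymus from a tumour. The YG+ pDC libraries came from plasmacytoid DCs (pDCs, CD11c low and B220+) that carried yellow-green microspheres. Their donors bore MC38 tumours, a mouse colon carcinoma line, and the tumours had been injected with the microspheres 12 days after inoculation and 2 days before the sort. The PBS pDC libraries came from pDCs of mice treated with PBS, and the PBS Sirpa+ DC libraries from CD11c high Sirpa+ DCs, a conventional DC subset, of mice treated with PBS. The labels of all 6 libraries share an entry of 2 weeks, given here as it stands. Whether PBS mice bore tumours, and whether replicate libraries are from different mice, is not said in the labels. Tumour, injected material and the YG gate cannot be told apart in YG+ pDCs against PBS pDCs. The p-values rest on the spread between libraries alone, and that spread may be technical.

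Gene totals ran from 177844 to 713966 counts, which is 0.842% to 3.36% of the uniquely placed reads. PBS pDC replicate 1 had the lowest total and share, its correlation with replicate 2 over log2 CPM of all tested genes was 0.726 (0.934 within YG+ pDCs and 0.855 within Sirpa+ DCs), and its Tsix count was 20.5 times that of Xist on the opposite strand, against 2.70 to 11.3 times in the other libraries. The ligand fold changes and calls that use this library are therefore also given without it. No source used here states whether the library kit or the counting kept strand, and since Tsix exceeded Xist in every library, which strand the counts of any gene come from cannot be told. The summed level of 10 pDC marker genes was 4266 and 6007 CPM in YG+ pDCs, where CPM is the count over the library size in units of 1e+06 reads after trimmed-mean scaling, 6053 and 6137 CPM in PBS pDCs and 757 and 845 CPM in Sirpa+ DCs. The Sirpa+ DC libraries also held markers of monocytes and macrophages, at 6428 and 10543 CPM, and 8 B cell genes summed to 775 and 692 CPM in the YG+ pDCs, 785 and 817 CPM in PBS pDCs and 25.4 and 19.9 CPM in Sirpa+ DCs. A count of 0 allows a level of up to 4.21 to 19.1 CPM, depending on the library, taken at 3 counts. In bulk libraries of sorted cells, fewer cells that make a transcript and less of it per cell cannot be told apart.

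Ccl22 was the ligand with the highest level per transcript length in Sirpa+ DCs, with Cxcl16 close to it in replicate 2. In both kinds of pDC it was Ccl4. Ccl22, Ccl17, Ccl5, Cxcl16 and Cxcl2 were lower in PBS pDCs than in Sirpa+ DCs, and Ccl4 was higher. For Ccl3 no comparison passed the test. The YG+ pDC means of Ccl22, Ccl5, Cxcl16 and Cxcl2 lay between those of PBS pDCs and Sirpa+ DCs, but no ligand passed the test in YG+ pDCs against PBS pDCs. The plot of levels by library shows all values.

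**Figure D1:**
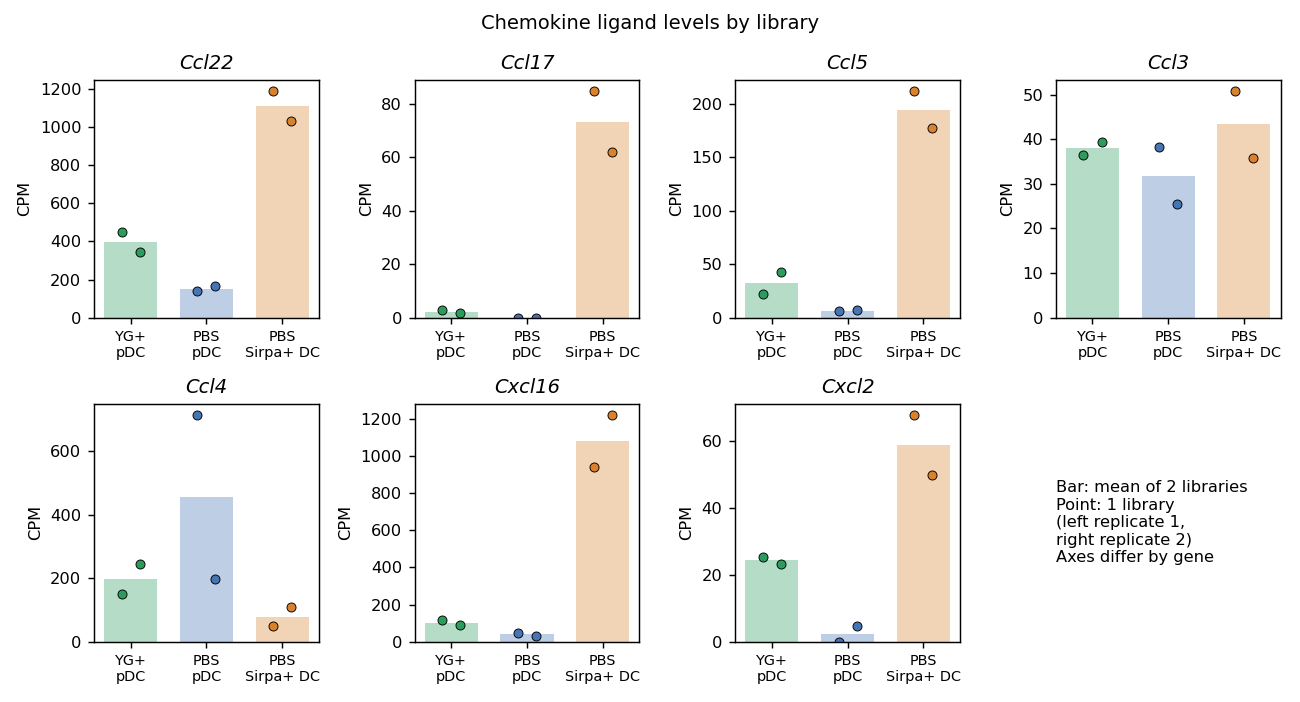
Levels of the 7 ligands in CPM, with a bar for the mean of 2 libraries and a point per library, grouped as YG+ pDC, PBS pDC and PBS Sirpa+ DC. Ccl22, Ccl17, Ccl5, Cxcl16 and Cxcl2 are highest in both Sirpa+ DC libraries, while Ccl4 is highest in PBS pDC replicate 1 at 714 CPM, and the axes differ by gene.

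Ccl22 and Ccl17, the Ccr4 ligands, lie near each other on chromosome 8 (GRCm38, plus strand). Ccl22 lies at 94745590 to 94751699 and Ccl17 at 94810453 to 94812036, and no annotated gene lies on the opposite strand of either. Ccl22 had 451 and 345 CPM in the YG+ pDCs, 140 and 164 CPM in PBS pDCs and 1189 and 1035 CPM in Sirpa+ DCs. The groups did not overlap in any pair. By edgeR's quasi-likelihood test Ccl22 fell in PBS pDCs against Sirpa+ DCs (adjusted p = 0.00270), at -2.85 ± 0.44 on the log2 scale (fold change ± SE). In YG+ pDCs against Sirpa+ DCs the log2 fold change was -1.48 ± 0.41 and missed the threshold (adjusted p = 0.0528). It passed in 9 of 17 alternatives, over which the adjusted p ran from 0.00418 to 0.619.

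Ccl17 had 2 and 1 counts in YG+ pDCs (2.81 and 1.79 CPM), 0 counts in both PBS pDC libraries, and 20 and 31 counts in Sirpa+ DCs (84.6 and 61.8 CPM). Both Sirpa+ DC libraries stood above all pDC libraries, and Ccl17 passed the filter on low counts, about 21.3 CPM in 2 libraries, only through them. With PBS pDCs set to 3 counts in the group as a whole, Ccl17 was 13.6-fold lower in PBS pDCs than in Sirpa+ DCs. With the counts as read, the exact 95% interval of the scaled count ratio began at 10.6-fold lower, counting error only. The test called Ccl17 lower in PBS pDCs (adjusted p = 0.00463, edgeR quasi-likelihood test). For YG+ pDCs over Sirpa+ DCs the ratio of summed counts, scaled to library size, was 0.0342 (95% exact interval 0.00682 to 0.106, counting error only), and the fall passed the test (adjusted p = 0.00621). Both calls were lost without either Sirpa+ DC library, at adjusted p of 0.0536 to 0.0984.

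The balance of the 2 Ccr4 ligands needs no scaling between libraries, because it is read within each. Ccl17 took 0.619% and 0.515% of the reads of the pair in YG+ pDCs, 0% in both PBS pDC libraries, and 6.64% and 5.64% in Sirpa+ DCs. The exact 95% intervals of the YG+ pDC libraries ended at 2.22% and 2.84%, below the start of the Sirpa+ DC intervals at 4.11% and 3.86%. In PBS pDCs, 0 of 22 reads allows a share of up to 13.6% and 0 of 71 reads up to 4.23%, limits that overlap the intervals of both other groups. The intervals cover counting error only, and no test over libraries was made of these shares.

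Ccl5, a T cell and monocyte attractant, lies on chromosome 11 (83525778 to 83530518, minus strand). It had 22.5 and 42.9 CPM in the YG+ pDCs, 6.38 and 6.94 CPM in PBS pDCs, from 1 and 3 counts, and 212 and 177 CPM in Sirpa+ DCs. The order of the 3 groups held in every library. Ccl5 fell both in PBS pDCs (log2 fold change -4.78 ± 0.63, adjusted p = 0.00119) and in YG+ pDCs (-2.57 ± 0.45, adjusted p = 0.00777, edgeR quasi-likelihood test) against Sirpa+ DCs. The YG+ pDC call was lost without YG+ pDC replicate 1 (adjusted p = 0.132), Sirpa+ DC replicate 1 (0.0769) or Sirpa+ DC replicate 2 (0.0532). Within a library, Ccl5 took 4.75% and 11.1% of the reads of Ccl5 and Ccl22 in YG+ pDCs, 4.35% and 4.05% in PBS pDCs, and 15.1% and 14.6% in Sirpa+ DCs.

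**Figure D2:**
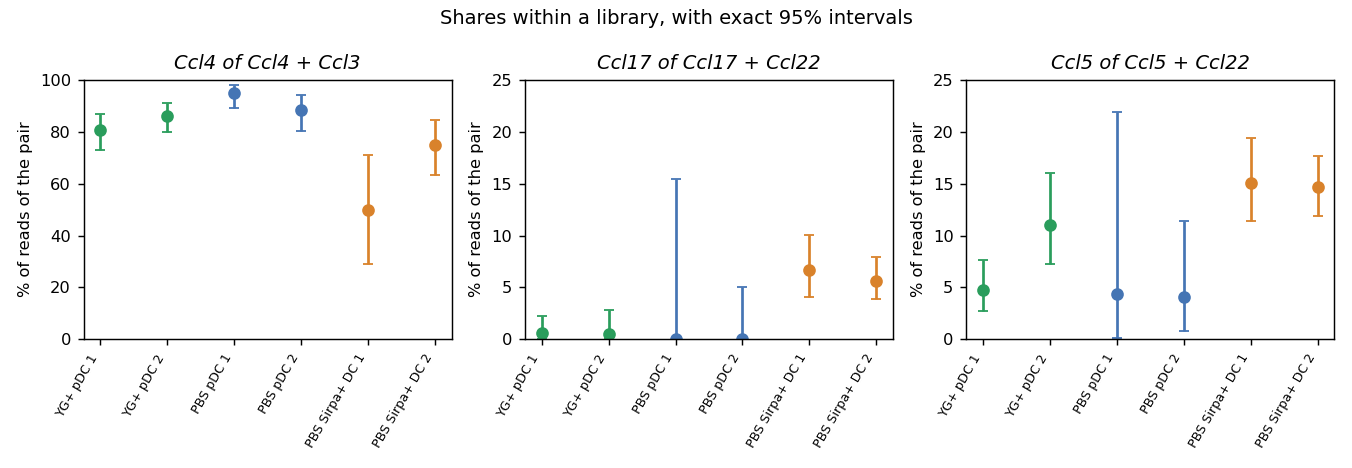
Share of the reads of a ligand pair taken by the first gene, in %, per library with exact 95% intervals that cover counting error only. Ccl4 takes 50% and 75% of the pair with Ccl3 in the Sirpa+ DC libraries and 80.6% or more in each pDC library. Ccl17 takes 5.64% or more of the pair with Ccl22 in Sirpa+ DCs and under 1% in YG+ pDCs. In PBS pDCs it takes 0 of 22 and 0 of 71 reads, with intervals that end at 15.4% and 5.06%.

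Ccl3 and Ccl4 encode related inflammatory chemokines and lie near each other on chromosome 11, Ccl3 on the minus strand (83647844 to 83649355) and Ccl4 on the plus strand (83662584 to 83664683). Ccl3 had 36.5 and 39.4 CPM in the YG+ pDCs, 38.3 and 25.5 CPM in PBS pDCs and 50.8 and 35.9 CPM in Sirpa+ DCs. The libraries of the 3 groups overlapped, and log2 fold changes were -0.16 ± 0.51 in YG+ pDCs and -0.48 ± 0.57 in PBS pDCs, each against Sirpa+ DCs (adjusted p = 0.888 in YG+ pDCs and 0.681 in PBS pDCs, edgeR quasi-likelihood test). The YG+ pDC value was 0.05 without Sirpa+ DC replicate 1. These values rest on 6 to 26 counts per library, and a p that misses the threshold does not show equal levels.

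Against Sirpa+ DCs, Ccl4 went the other way from Ccl22, Ccl17, Ccl5, Cxcl16 and Cxcl2. It had 152 and 245 CPM in the YG+ pDCs, 714 and 197 CPM in PBS pDCs, and 50.8 and 108 CPM in Sirpa+ DCs. Both kinds of pDC lay above Sirpa+ DCs without overlap, while the PBS pDC libraries lay far apart from each other. Against Sirpa+ DCs, Ccl4 rose in PBS pDCs by 2.44 ± 0.64 on the log2 scale (adjusted p = 0.0323, edgeR quasi-likelihood test). Without PBS pDC replicate 1 the value was 1.23 and the call was lost (adjusted p = 0.0979). The call was also lost without Sirpa+ DC replicate 1 (0.238) or replicate 2 (0.129) and in a fit of the 4 libraries compared (0.0569). YG+ pDCs over Sirpa+ DCs gave a log2 fold change of 1.27 ± 0.62 (adjusted p = 0.259).

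Within a library, Ccl4 took 80.6% and 86.2% of the reads of Ccl4 and Ccl3 in YG+ pDCs, 94.9% and 88.5% in PBS pDCs, and 50% and 75% in Sirpa+ DCs. All 4 pDC libraries lay above both Sirpa+ DC libraries in this share. The exact 95% interval of the higher Sirpa+ DC library, 63.4% to 84.5%, overlapped those of both YG+ pDC libraries, which began at 72.9% and 79.8%. It also overlapped that of PBS pDC replicate 2, which began at 80.4%, but not that of replicate 1, which began at 89.3%. A list of lymphocyte genes was also highest in PBS pDC replicate 1. The summed level of 9 natural killer and cytotoxic lymphocyte genes was 8.43 and 7.16 CPM in the YG+ pDCs, 70.2 and 25.5 CPM in PBS pDCs, and 25.4 and 25.9 CPM in Sirpa+ DCs. In PBS pDC replicate 1 this rested on 2 to 4 counts each of Klrk1, Eomes, Gzma and Tbx21, while Ncr1, Klrb1c, Nkg7, Gzmb and Prf1 were at 0. The list of 12 T cell genes summed to 607 and 726 CPM in the YG+ pDCs, 568 and 648 CPM in PBS pDCs and 165 CPM in each Sirpa+ DC library. Of its 5 tested members, Cd8b1, Lck and Cd8a were called higher in PBS pDCs against Sirpa+ DCs, as were 4.54% of all genes. Cd4 and Cd2 were tested too and not called. Cd4 made up a large part of the sum. It had 287 and 322 CPM in the YG+ pDCs, 166 and 271 CPM in PBS pDCs and 118 and 124 CPM in Sirpa+ DCs. Cd8b1 had 147 and 225 CPM in the YG+ pDCs, 262 and 199 CPM in PBS pDCs and 4.23 and 3.99 CPM in Sirpa+ DCs. Lck had 23.9 and 32.2 CPM in the YG+ pDCs, 70.2 and 53.2 CPM in PBS pDCs and 4.23 and 5.98 CPM in Sirpa+ DCs. Cd3g was at 0 in every library, and Cd3e in all but YG+ pDC replicate 2, where it had 3 counts. Cd3d had 5 and 3 counts in the YG+ pDCs, 0 and 2 in PBS pDCs and 6 and 0 in Sirpa+ DCs. Bcl11b had 0 to 3 counts per library and Themis 0 or 1. The part of lymphocytes in the Ccl4 level was not tested.

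Cxcl16, a membrane-bound ligand that can be shed by proteases and also acts as a scavenger receptor, lies on chromosome 11 (70453983 to 70459984, minus strand). It had 114 and 89.5 CPM in the YG+ pDCs, 44.6 and 32.4 CPM in PBS pDCs, and 939 and 1220 CPM in Sirpa+ DCs. Each Sirpa+ DC library was far above every pDC library. Cxcl16 fell in PBS pDCs with a log2 fold change of -4.85 ± 0.51 (adjusted p = 7.81e-04) and in YG+ pDCs with one of -3.40 ± 0.45 (adjusted p = 0.00232, edgeR quasi-likelihood test), each against Sirpa+ DCs. Both calls held in every alternative in which the gene was tested. The exons of Cxcl16 overlap 552 bases of exons of Zmynd15 on the opposite strand, and since no source used here states whether counting used strand, reads of the 2 genes may be shared. Zmynd15 had 197 and 165 CPM in the YG+ pDCs, 204 and 23.1 CPM in PBS pDCs and 5670 and 2989 CPM in Sirpa+ DCs, also lower in both kinds of pDC (adjusted p = 0.00777 in YG+ pDCs and 0.00319 in PBS pDCs, edgeR). The part of Zmynd15 reads in the Cxcl16 level was not tested. None of the other ligands has an annotated gene on its opposite strand.

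Cxcl2, a neutrophil attractant, lies on chromosome 5 (90903871 to 90905938, plus strand). It had 25.3 and 23.3 CPM in the YG+ pDCs, 0 and 4.63 CPM in PBS pDCs, from 0 and 2 counts, and 67.7 and 49.8 CPM in Sirpa+ DCs. Its groups did not overlap in any pair. Cxcl2 fell in PBS pDCs against Sirpa+ DCs (adjusted p = 0.0122, edgeR quasi-likelihood test), and the ratio of summed counts, scaled to library size, was 0.0611 (95% exact interval 0.00716 to 0.235, counting error only). Without Sirpa+ DC replicate 1 or 2 the call was lost, at adjusted p of 0.0703 and 0.0661. YG+ pDCs over Sirpa+ DCs gave a log2 fold change of -1.24 ± 0.55 (adjusted p = 0.211).

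Promoter sequence was at hand for Ccl22, Ccl17, Ccl3 and Cxcl2, as RefSeq windows of GRCm38.p6. Of these, Ccl22, Ccl17 and Cxcl2 are shown because they were all called lower in PBS pDCs than in Sirpa+ DCs. Each line gives the last 150 bases before the earlier of the RefSeq and GENCODE starts, 5′ to 3′ on the plus strand, with matches to the NF-kB consensus in capitals.
Ccl22 (chr8:94745440-94745589): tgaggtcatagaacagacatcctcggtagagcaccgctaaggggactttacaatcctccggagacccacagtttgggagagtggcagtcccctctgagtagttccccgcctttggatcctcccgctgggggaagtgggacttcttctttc
Ccl17 (chr8:94810303-94810452): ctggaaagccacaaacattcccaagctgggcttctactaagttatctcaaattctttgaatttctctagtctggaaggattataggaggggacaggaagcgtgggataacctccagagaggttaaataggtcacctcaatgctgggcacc
Cxcl2 (chr5:90903721-90903870): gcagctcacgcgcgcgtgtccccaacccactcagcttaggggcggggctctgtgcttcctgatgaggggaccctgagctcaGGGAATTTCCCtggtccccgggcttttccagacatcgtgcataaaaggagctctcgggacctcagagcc
Cxcl2 held 2 overlapping matches to this consensus, GGGAATTTCC and GGAATTTCCC, between 69 and 59 bases before the start. The windows of Ccl22, Ccl17 and Ccl3 held no match in their 300 bases on either strand. Of 32851 mouse promoter windows of the same length, 8.46% held the consensus. A match is a description of the letters and not a bound site.

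Compared per length of the longest protein-coding transcript, 514 bases for Ccl17 and 2216 bases for Ccl22, Ccl4 led the ligand set in pDCs and Ccl22 in Sirpa+ DCs, with no test made of these shares. Ccl4 made up 39.3% and 52.4% of the summed CPM per kilobase of the 7 ligands in YG+ pDCs, 88.4% and 68.8% in PBS pDCs, and 4.73% and 10.1% in Sirpa+ DCs. Ccl22 made up 34.8% and 22% in YG+ pDCs, 5.17% and 17.1% in PBS pDCs, and 33% and 29% in Sirpa+ DCs. In each of the 4 pDC libraries Ccl4 was first and Ccl22 second. In Sirpa+ DCs Ccl22 was first at 502 ± 49.2 CPM per kilobase, followed by Cxcl16 at 400.1 ± 73.6 and Ccl5 at 366 ± 45.4 (SD, n = 2). Ccl22 led in both libraries, but in Sirpa+ DC replicate 2 only at 467 against 452 CPM per kilobase for Cxcl16. Cxcl16 and Ccl5 changed places between the 2 libraries, and their levels did not differ beyond this spread. Then came Ccl17 at 142 ± 31.4 and Ccl4 at 120.0 ± 60.9, again within their spread, then Ccl3 at 56.6 ± 13.7 and Cxcl2 at 31.6 ± 6.79 CPM per kilobase.

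**Figure D3:**
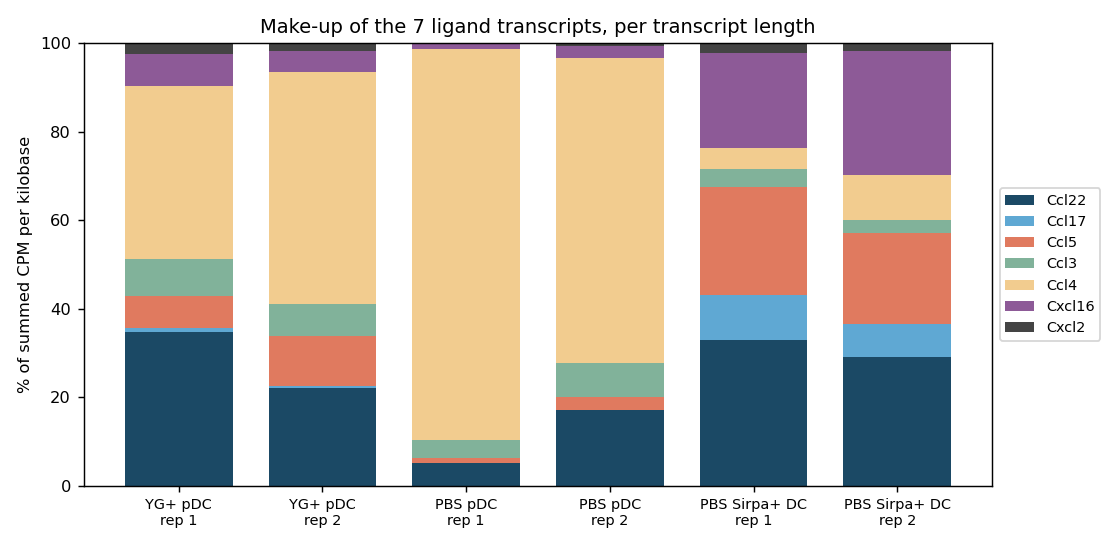
Share of each ligand in the summed CPM per kilobase of the 7 ligands, in %, for each of the 6 libraries. Ccl4 takes 39.3% to 88.4% in the pDC libraries and 4.73% and 10.1% in the Sirpa+ DC libraries, where Ccl22, Cxcl16 and Ccl5 together fill most of the bar.

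In YG+ pDCs the order per length was Ccl4 at 301 ± 100.1, Ccl22 at 179.7 ± 33.7, Ccl5 at 61.5 ± 27.2, Ccl3 at 49.5 ± 2.63, Cxcl16 at 37.7 ± 6.37, Cxcl2 at 13.1 ± 0.769 and Ccl17 at 4.47 ± 1.40 CPM per kilobase (SD, n = 2). Ccl5 and Ccl3 did not differ by more than the spread of Ccl5, while Ccl3 lay above Cxcl16 in both libraries. In PBS pDCs Ccl4 stood at 690.2 ± 555, Ccl22 at 68.7 ± 7.65, Ccl3 at 41.6 ± 11.8, Cxcl16 at 14.3 ± 3.21, Ccl5 at 12.5 ± 0.749 and Cxcl2 at 1.24 ± 1.76 CPM per kilobase, with Ccl17 at 0. The Ccl4 mean rests on replicate 1, at 1082 CPM per kilobase against 298 in replicate 2, and Cxcl16 and Ccl5 were within their spread. Among 19328 protein-coding genes with a transcript length, Ccl4 held rank 81 in YG+ pDCs, rank 29 in PBS pDCs and rank 383 in Sirpa+ DCs by this mean level. In single libraries its rank was 109 and 58 in YG+ pDCs, 18 and 78 in PBS pDCs and 745 and 242 in Sirpa+ DCs, so the place of PBS pDCs above YG+ pDCs rests on PBS pDC replicate 1. Ccl22 held rank 167 in YG+ pDCs, rank 789 in PBS pDCs and rank 48 in Sirpa+ DCs. Cxcl16 held rank 1533 in YG+ pDCs, rank 4226 in PBS pDCs and rank 62 in Sirpa+ DCs. These ranks, and the orders per length above, take each count as reads from the gene's own strand, which was not tested.

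PBS pDCs and Sirpa+ DCs are the 2 subsets sorted from mice treated with PBS. The test called 6 of the 7 ligands, 5 lower and 1 higher, against 11.4% of all 8141 genes tested, with 6.89% lower and 4.54% higher. Libraries of 5 ligands lay below without overlap and those of 1 above, against 24.2% and 22.9% of all genes. DESeq2 and limma-voom called the same number of ligands, 6, and 10.5% and 10% of genes. The median log2 fold change of the 7 was -4.01, and that of all genes 0.08. With Ccl17 set to the bound given by 3 counts, the median of the 7 was -3.76. A reading of these counts is limited by the filter on low counts, which Ccl17 passed only through the Sirpa+ DC libraries. The ligands were also chosen with earlier results of these data known, so their shares beside those of all genes are a description only. Without PBS pDC replicate 1, the values were -2.74 for Ccl22, -4.74 for Ccl5, -0.70 for Ccl3, -5.04 for Cxcl16 and -3.55 for Cxcl2, and the calls of Ccl22, Ccl17, Ccl5, Cxcl16 and Cxcl2 held. Leaving out either Sirpa+ DC library left 3 calls, those of Ccl22, Ccl5 and Cxcl16.

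Genes of other DC states moved with the ligands in this comparison, where 6.89% of all 8141 genes were called lower and 4.54% higher. The summed level of 12 mature or migratory DC markers was 982 and 819 CPM in PBS pDCs against 6724 and 5712 CPM in Sirpa+ DCs, and 10 of 11 tested members fell and 0 rose. Fscn1, an actin-bundling gene of mature DCs, was 151 ± 30.1 CPM in PBS pDCs and 2454 ± 527 CPM in Sirpa+ DCs. Ccr7, the receptor that guides mature DCs, was 317 ± 84.5 CPM in PBS pDCs and 1270 ± 143 CPM in Sirpa+ DCs (SD, n = 2 each). The 13 monocyte and macrophage markers summed to 1665 and 1097 CPM in PBS pDCs and 6428 and 10543 CPM in Sirpa+ DCs, with 10 of 12 tested members lower and 1, Ly6c2, which pDCs express too, higher. Leaving out 1 library left 4 to 10 calls in the first list and 5 to 11 in the second. Mertk and Fcgr1 were at 0 in both PBS pDC libraries. Of 7 tested markers of cDC1, a further conventional DC subset, 5 fell (Itgae, Clec9a, Batf3, Wdfy4 and Xcr1) and 1, Irf8, rose, with a median log2 fold change of -2.68 and 1 to 6 calls when 1 library was left out. Clec9a was 38.5 ± 27.4 CPM in PBS pDCs and 279 ± 59.6 CPM in Sirpa+ DCs (SD, n = 2 each). With Irf8, the 8 cDC1 genes summed to 1563 and 2263 CPM in PBS pDCs and 2179 and 2131 CPM in Sirpa+ DCs. Markers of cDC2, the conventional DC subset marked by Sirpa, were mixed. Of 8 tested, 1, Mgl2, fell and 1, Clec10a, rose, with a median log2 fold change of -0.82. These counts are too small to be told from the shares of all genes. Sirpa itself was not called (log2 fold change -1.34 ± 0.44, adjusted p = 0.0754, edgeR quasi-likelihood test). The part of mature DCs, macrophages or cDC1 in the ligand levels was not tested.

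Microsphere-carrying pDCs were then set against each PBS group. Between YG+ and PBS pDCs the edgeR quasi-likelihood test called 0 of the 7 ligands and 0% of 8141 genes. An unadjusted p under 0.05 was found for 4 ligands, all higher, and for 11.4% of all genes, with 4.69% higher. DESeq2 and limma-voom also called 0 ligands. DESeq2 called 1.32% of the 3406 genes to which it gave an adjusted p, and limma-voom called 0% of 8141 genes. A ligand without an adjusted p in DESeq2 could not be called by it. The 4 ligands were Ccl22 (398 ± 74.6 CPM in YG+ pDCs against 152 ± 16.9 CPM in PBS pDCs, log2 fold change 1.38 ± 0.42, adjusted p = 0.315), Ccl5 (2.21 ± 0.69), Cxcl16 (1.45 ± 0.49) and Cxcl2, and each had both YG+ pDC libraries above both PBS pDC libraries. Ccl17 had so few counts in both groups that no fold is given. In all, 5 of 7 ligands had this order of libraries, as did 26.5% of all genes, and 0 had the reverse order, which 19.3% of all genes had. Among the 5 is Ccl17, with 2 and 1 counts in YG+ pDCs against 0 in both PBS pDC libraries, an order that this depth does not resolve. Since the ligands were chosen with earlier results of these data known, these shares are a description only. For Cxcl2 the ratio of summed counts was 7.18, with an exact 95% interval of 1.83 to 61.9 that covers counting error only.

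Without PBS pDC replicate 1 the log2 fold changes in YG+ pDCs against PBS pDCs were 1.27 for Ccl22, 2.16 for Ccl5, 0.56 for Ccl3, 1.64 for Cxcl16 and 2.32 for Cxcl2. None was called, with adjusted p of 0.458 to 0.895 for these 5 genes. For Ccl4 the value was -1.17 ± 0.60 with all libraries (adjusted p = 0.492), 0.00 to 2 decimals without PBS pDC replicate 1, and -1.81 without replicate 2 (adjusted p = 0.0191). The direction of Ccl4 between the 2 kinds of pDC therefore rests on 1 library, PBS pDC replicate 1. The summed levels of the macrophage and mature DC lists were higher in YG+ pDCs too, but not those of every member: Ly6c2 averaged 225 CPM in YG+ pDCs against 475 CPM in PBS pDCs. The monocyte and macrophage list summed to 4890 and 2126 CPM in YG+ pDCs against 1665 and 1097 CPM in PBS pDCs, and the mature DC list to 2243 and 1766 CPM in YG+ pDCs against 982 and 819 CPM in PBS pDCs. Neither list had a called member. An unadjusted p under 0.05 (edgeR) was found for 9 of 12 macrophage and 5 of 11 mature DC genes, against 11.4% of all genes. DESeq2 called 4 and 3, against 1.32% of the genes to which it gave an adjusted p. The part of both lists in the ligand values was not tested.

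**Figure D4:**
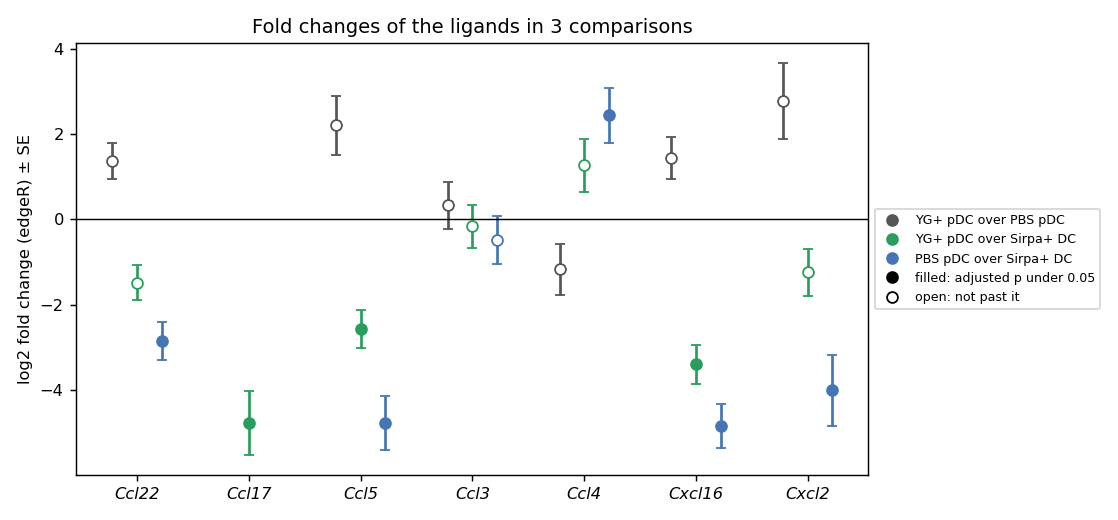
Log2 fold changes from edgeR with SE for YG+ pDCs over PBS pDCs, YG+ pDCs over Sirpa+ DCs and PBS pDCs over Sirpa+ DCs, with filled points for adjusted p under 0.05. Ccl17 is left out where PBS pDCs, at 0 counts, enter; all points over PBS pDCs are open, and Ccl4 is the ligand with values above 0 against Sirpa+ DCs.

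Against Sirpa+ DCs, the test called in YG+ pDCs 3 of 7 ligands, Ccl17, Ccl5 and Cxcl16, all lower, against 7.16% of all genes, with 4.09% lower and 3.07% higher. Of the 3, Ccl17 passed the filter on low counts only through the Sirpa+ DC libraries, where it is high. Here too the ligands were chosen with earlier results known, so their shares beside all genes are a description only. Libraries of 5 ligands lay below without overlap and those of 1, Ccl4, above, against 29.1% and 32.8% of all genes. The median log2 fold change of the 7 was -1.48 and that of all genes 0.04. DESeq2 and limma-voom called Ccl22 as well, and 7.36% and 8.29% of genes. This comparison shares the Sirpa+ DC libraries with that of PBS pDCs, so the values stand side by side and are not independent. The log2 fold changes of YG+ pDCs over Sirpa+ DCs were -1.48 for Ccl22, -2.57 for Ccl5, -3.40 for Cxcl16 and 1.27 for Ccl4. Those of PBS pDCs over Sirpa+ DCs were -2.85 for Ccl22, -4.78 for Ccl5, -4.85 for Cxcl16 and 2.44 for Ccl4. Leaving out either Sirpa+ DC library left 1 call, Cxcl16, and without PBS pDC replicate 1, which adds to the shared estimate of spread, 5 were called, with Ccl22 and Ccl4 (1.22, adjusted p = 0.0451) added.

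Beyond these 7, 33 other chemokine ligand genes were listed in the files, and 13 of them had no count in any library. The 7 ligands held 87.7% and 91.5% of all chemokine ligand reads in YG+ pDCs, 93.1% and 89.0% in PBS pDCs, and 94.5% and 93.6% in Sirpa+ DCs. Only Ccl9, a ligand of Ccr1, passed the filter on low counts, and did so only through the Sirpa+ DC libraries, at 38.1 and 61.8 CPM. Ccl9 had 11.8 ± 9.12 CPM in the YG+ pDCs, 3.47 ± 4.91 CPM in PBS pDCs and 49.9 ± 16.8 CPM in Sirpa+ DCs (SD, n = 2), and fell in PBS pDCs against Sirpa+ DCs (log2 fold change -3.32 ± 0.95, adjusted p = 0.0448, edgeR quasi-likelihood test). This call was lost without PBS pDC replicate 1 or either Sirpa+ DC library, and with DESeq2 and limma-voom. Ccl6 was the highest of the others in YG+ pDCs, at 29.5 and 21.5 CPM, and Xcl1, the ligand of the cDC1 receptor Xcr1, in PBS pDC replicate 1, at 38.3 CPM from 6 counts. The homeostatic ligands Ccl19 and Cxcl12 were among those with no count, which allows up to 4.21 to 19.1 CPM per library.

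**Figure D5:**
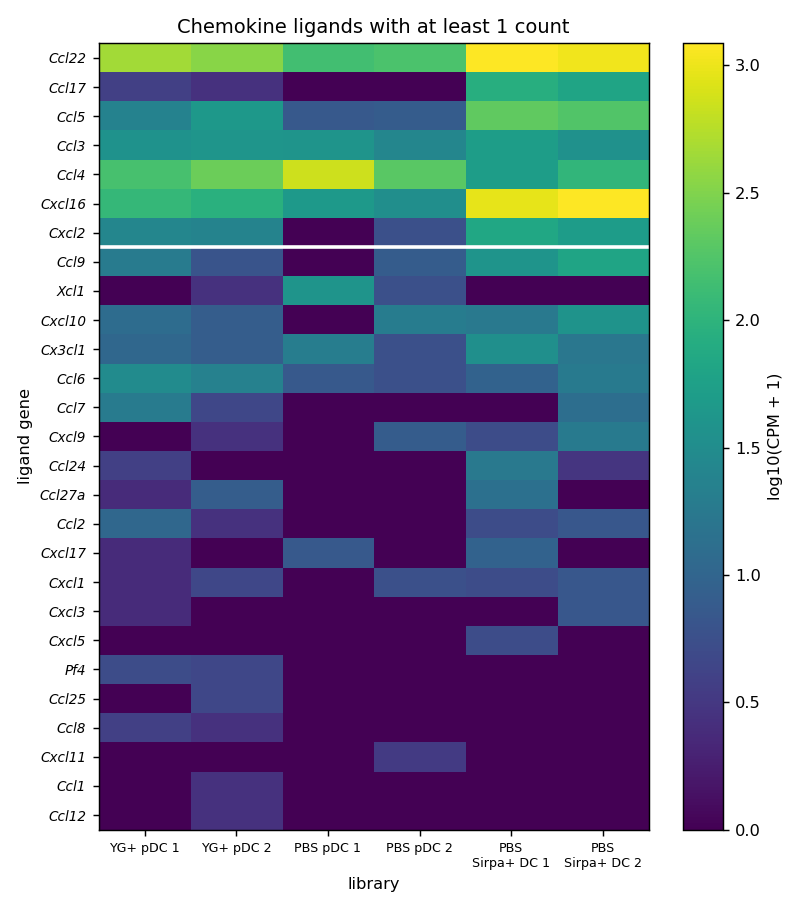
Log10 of CPM + 1 for the 7 ligands (above the white line) and the 20 other chemokine ligand genes with at least 1 count, in each of the 6 libraries. Colours compare libraries within a row, since CPM is not scaled to gene length; Ccl9 reaches 61.8 CPM in Sirpa+ DC replicate 2, the highest value below the line.

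Cxcr6, the receptor of Cxcl16, was also read in these cells and was not called in any comparison (adjusted p = 0.378 in YG+ pDCs against PBS pDCs, edgeR quasi-likelihood test). Cxcr6 had 73.0 and 102 CPM in the YG+ pDCs, 389 and 106 CPM in PBS pDCs and 161 and 124 CPM in Sirpa+ DCs, so that PBS pDC replicate 1 was again the highest library. Ccr4, the receptor of Ccl17 and Ccl22, and Cxcr2 did not pass the filter. Adam10 and Adam17, proteases that shed Cxcl16, and Dpp4, which trims several chemokines, were not called in any comparison. Adam10 had 111 ± 4.54 CPM in the YG+ pDCs, 71.5 ± 19.9 CPM in PBS pDCs and 129 ± 20.7 CPM in Sirpa+ DCs.

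Of 13 transcription factor genes known to act on chemokine genes in macrophages and DCs, 1 rose and 2 fell in PBS pDCs against Sirpa+ DCs, where 4.54% of all tested genes rose and 6.89% fell. Irf8, needed by pDCs and cDC1, rose, at 1438 ± 338 CPM in PBS pDCs and 299 ± 51.3 CPM in Sirpa+ DCs (adjusted p = 0.00942, edgeR quasi-likelihood test). The NF-kB subunit genes Rel and Relb fell; Relb is also in the mature DC list, and Irf8 in the cDC1 list. Rel had 216 ± 44.3 CPM in PBS pDCs and 759 ± 20.4 CPM in Sirpa+ DCs (adjusted p = 0.0192), and Relb 79.9 ± 40.8 CPM in PBS pDCs and 267 ± 17.0 CPM in Sirpa+ DCs (adjusted p = 0.0374). Without PBS pDC replicate 1 these 3 genes were called. Without either YG+ pDC library only Irf8 was, and without either Sirpa+ DC library none of them. In YG+ pDCs against Sirpa+ DCs, where 7.16% of all genes were called, Irf8 rose (adjusted p = 0.0155) and Relb fell (adjusted p = 0.0458), and both calls were lost without any 1 of the 4 libraries compared. Between YG+ and PBS pDCs 0 of the 13 were called, and 1, Rel, had an unadjusted p under 0.05, at 463 ± 44.7 CPM in YG+ pDCs against 216 ± 44.3 CPM in PBS pDCs (adjusted p = 0.358). Nfkb1, Rela and Irf4 were not called in any comparison.

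The genes whose log2 CPM followed each ligand most closely over the 6 libraries were read from 7627 candidates by Pearson correlation, which is a description and carries no test. Ccl22 was followed most closely by Adcy6, Alpk2 and Isg15 (r = 0.996 to 0.997) and Ccl17 by Mmp12, Hnrpll and Olfr113 (0.997 to 1.000). Sorbs3, Abhd16b and Tmcc2 came closest to Ccl5 (0.995 to 0.996), and Ier3, Trim35 and Olfm1 to Cxcl16 (0.996 to 0.998). Cxcl2 was followed by Spr, Tnfaip2 and Mxd1 (0.992 to 0.997). For Ccl3 the nearest were Smim3, Gtf3c1 and Nol6 (0.964 to 0.997), and for Ccl4 Zdhhc9, Ptcd3 and Ngly1 (0.987 to 0.998), which like Ccl4 were highest in PBS pDC replicate 1.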

How the data were processed

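RNA from sorted thymic DCs was extracted with TRIzol and 5 ng of it went into each Ovation SoLo library (RNA-Seq Mouse), per the labels' protocols. The authors deposited whole-number read counts per gene symbol, 1 table per sample. Per the submitters' processing notes, bcl2fastq 2.17 and the build mm10 were used; no source used here gives the aligner, the counting program, the annotation or the strand. The 5 closing lines of each table name no gene, held 97.7% to 99.5% of all records and were left out.

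Genes passing filterByExpr (8141 of 23420) were scaled by TMM and tested with edgeR 4.0.16 (glmQLFit, glmQLFTest; R 4.3.3) in 1 fit of 3 group means over 6 libraries, with Benjamini-Hochberg adjustment over all genes and a threshold of 0.05. The biological coefficient of variation was 33.0%. Libraries of a group varied by more than sampling noise (chi-square over its degrees of freedom, 2.75 to 9.56). All 7 ligands passed the filter, about 21.3 CPM in 2 libraries. Coordinates and transcript lengths came from GENCODE M21 (GRCm38), which matched 92.8% of symbols to 1 gene. The ligands, gene lists and cell type markers were chosen with earlier results of these data known. Ligands were named whatever their values, called list genes by smallest p, and most similar genes as the 3 highest correlations (prior count 2) among genes of at least 20 CPM in a group, without predicted genes and antigen receptor segments. Cell type markers, Zmynd15 and list genes that were not called are named outside this rule, after their values were seen. Some listed genes with no row under their symbol were not analysed here. Alternatives used DESeq2 1.42.0 and limma 3.58.1. Intervals are exact (Clopper-Pearson) at 95%, and floors, at 3 counts, cover counting error only. Some genes of the lists are not reported here.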

Additional observations from a re-analysis of the deposited data

How the results depend on the processing

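No ligand changed direction under an alternative except Ccl3 in YG+ pDCs against Sirpa+ DCs, where the value was -0.16 with all libraries and ran from -0.42 to 0.05 with 1 library left out, positive without Sirpa+ DC replicate 1. Ccl4 in YG+ pDCs against PBS pDCs was 0.00 without PBS pDC replicate 1. Of 350 ligand values under alternatives, 325 kept their direction and their side of the threshold, 1 changed direction, 13 lost a call and 11 gained one. In YG+ pDCs against PBS pDCs, genes called numbered 0, against 141 with no filter on low counts, 45 with DESeq2 and 0 to 870 when 1 library was left out, the highest without PBS pDC replicate 2, where 1 ligand, Ccl4, was called (0 to 1 ligands over these). In YG+ pDCs against Sirpa+ DCs, 583 genes were called, against 894 with no filter, 1480 in a fit of the 4 libraries compared and 69 to 1487 with 1 library left out, and 3 ligands, against 1 to 5. In PBS pDCs against Sirpa+ DCs, 931 genes were called, against 580 in a fit of the 4 libraries and 214 to 1297 with 1 library left out, and 6 ligands, against 3 to 6. The causes were not tested. A lone library was assumed to vary like those of the other groups.

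Same-numbered libraries deviated from their group means with correlations of -0.12, -0.10 and 0.30, so the numbers were not taken to pair samples. With a replicate block 0, 635 and 942 genes and 0, 3 and 6 ligands were called in the 3 comparisons as ordered above. Crossed numbers for YG+ pDCs, chosen after seeing the data, gave 294, 1221 and 1396 genes with the block. Leaving out Tsix, Xist, Malat1 and Rn45s, and testing only genes that face none on the other strand, were also added after seeing the data. Depth limits Ccl17, Ccl5 and Cxcl2 in PBS pDCs, where they had 0, 4 and 2 counts in all.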
